A study of Mus musculus with 6 samples.

Results

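Of the 9413 long noncoding RNAs (lncRNAs) listed for these mouse hearts, 1649 lay antisense to a listed protein-coding gene. Each was chosen by position and name alone: its span overlapped the span of an mRNA row on the opposite strand, overlapped none on the same strand, and its name was a Gm number (1272 lncRNAs) or ended in Rik (377 lncRNAs). In all, 1800 lncRNAs met the position rule, 1654 of them had such a name, and 5 of those were left out by name. The rule itself used no measured value, but it was set with earlier results of these data known. The hearts came from male mice and were all isolated and perfused on a Langendorff system, which feeds the coronary arteries through the aorta. In the 3 Sham hearts the beat was never arrested. The 3 I/R (ischemia and reperfusion) hearts were arrested with cardioplegic solution for 30 min and then reperfused for 1 h. Strain and age were not given in the labels. Each library held polyadenylated RNA of 1 heart, labelled as a biological replicate, and was read out as FPKM (fragments scaled to transcript length and to the total of the RNA class).

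An antisense lncRNA is transcribed from the DNA strand opposite to a gene, so its RNA can be complementary to that gene's RNA where their exons overlap. Such transcripts often begin near the start of the gene and run away from it, as mammalian promoters commonly start transcription in both directions, while others begin within the gene or beyond its end and run back into it. Known examples act at their own locus on transcription, splicing or stability of the opposite RNA, and for many no function is known.

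The positions were read as 4 arrangements: head-to-head, where the 5′ ends overlap and the transcripts run apart; tail-to-tail, where the 3′ ends overlap; inside, where the lncRNA lies wholly within the span of the gene; and around, where it encloses the gene. There were 435 head-to-head, 252 tail-to-tail, 917 inside and 45 around lncRNAs. Together they faced 1423 genes, 211 of which had more than 1 antisense lncRNA, and 1603 lncRNAs faced a single gene. The deposited coordinates are those of GRCm38: of 698 of these lncRNAs with a RefSeq span of the same name in GRCm38.p6, 607 (87.0%) overlapped it for at least 50% of the span, and all 537 with a RefSeq strand were on the same strand. Exon boundaries were not analysed here, so exonic and intronic overlap are not separated.

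Start-site windows of 300 bases (250 before and 50 after the start, RefSeq, GRCm38.p6) show these arrangements at the letter level for loci on which the results below turn. Gm26885 and Pim1 run apart on chromosome 17, and the Gm26885 window (chr17:29491495-29491794, minus strand) lies inside the span of Pim1, downstream of the Pim1 window (chr17:29490535-29490834, plus strand). The RefSeq start behind the Gm26885 window lies 381 bases from the start of the Gm26885 span in the deposited table, and that behind the Pim1 window 27 bases from the start of Pim1 there. The 0610040F04Rik window is chr6:108660885-108661184 (minus strand, inside the span of Bhlhe40). B230110C06Rik (chr14:15437373-15437672, plus strand) and Lrrc3b (chr14:15438938-15439237, minus strand) are a head-to-head pair, and A630019I02Rik (chr13:93094583-93094882, plus strand) starts inside Cmya5. Capitals mark matches on either strand to 5 motifs searched: the STAT site TTCNNNGAA, the cyclic AMP response element TGACGTCA, the GC box with the letters GGGCGG, the TATA box with the letters TATAAA, and the E-box, which is spelled CACGTG and reads alike on both strands.
Gm26885: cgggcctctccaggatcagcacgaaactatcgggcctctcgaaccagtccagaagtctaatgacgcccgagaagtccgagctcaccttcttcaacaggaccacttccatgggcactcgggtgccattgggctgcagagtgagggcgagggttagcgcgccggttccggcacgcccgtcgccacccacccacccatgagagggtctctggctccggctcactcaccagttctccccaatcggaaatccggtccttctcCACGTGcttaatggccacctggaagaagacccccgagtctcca
Pim1: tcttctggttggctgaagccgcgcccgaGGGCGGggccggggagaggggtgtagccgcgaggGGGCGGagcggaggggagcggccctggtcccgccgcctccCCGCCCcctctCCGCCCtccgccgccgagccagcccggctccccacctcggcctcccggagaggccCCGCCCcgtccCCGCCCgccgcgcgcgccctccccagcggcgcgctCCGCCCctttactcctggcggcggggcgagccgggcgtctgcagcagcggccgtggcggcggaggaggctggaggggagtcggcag
0610040F04Rik: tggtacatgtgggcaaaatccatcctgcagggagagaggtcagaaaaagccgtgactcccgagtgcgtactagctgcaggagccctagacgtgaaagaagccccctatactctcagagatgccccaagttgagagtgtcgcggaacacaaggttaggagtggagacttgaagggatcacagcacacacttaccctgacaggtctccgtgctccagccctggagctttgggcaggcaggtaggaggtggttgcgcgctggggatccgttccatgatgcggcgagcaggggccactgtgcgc
B230110C06Rik: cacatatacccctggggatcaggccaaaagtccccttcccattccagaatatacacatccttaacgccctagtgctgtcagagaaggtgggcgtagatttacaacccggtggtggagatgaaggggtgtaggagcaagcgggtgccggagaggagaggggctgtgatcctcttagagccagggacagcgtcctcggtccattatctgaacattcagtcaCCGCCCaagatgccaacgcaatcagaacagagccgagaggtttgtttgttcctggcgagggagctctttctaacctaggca
Lrrc3b: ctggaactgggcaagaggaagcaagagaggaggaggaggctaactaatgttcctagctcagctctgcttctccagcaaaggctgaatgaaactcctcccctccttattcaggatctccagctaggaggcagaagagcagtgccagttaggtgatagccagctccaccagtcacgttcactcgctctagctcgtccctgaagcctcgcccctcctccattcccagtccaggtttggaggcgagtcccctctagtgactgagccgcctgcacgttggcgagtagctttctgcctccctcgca
A630019I02Rik: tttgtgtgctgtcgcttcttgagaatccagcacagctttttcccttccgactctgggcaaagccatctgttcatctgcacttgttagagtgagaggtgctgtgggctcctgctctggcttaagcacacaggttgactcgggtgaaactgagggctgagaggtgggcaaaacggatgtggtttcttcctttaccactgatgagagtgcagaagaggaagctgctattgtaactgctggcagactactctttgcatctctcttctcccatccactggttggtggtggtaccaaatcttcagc
The Pim1 window held 7 GC boxes and was 81.3% G and C, whereas the Gm26885 window held 1 E-box, no GC box and 61.7% G and C. A match is a description of letters and not a binding site.

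Windows were found for 537 of the antisense lncRNAs. Head-to-head lncRNAs had windows richer in G and C (median 58.7%, n = 182) than lncRNAs inside a gene (49.3%, n = 233) or all 32817 RefSeq windows (52.7%). A GC box was present in 44.0% of head-to-head windows, 30.4% of all antisense windows and 35.6% of all windows. The STAT motif was found in 9.12% of antisense and 8.29% of all windows, the cyclic AMP response element in 1.86% and 1.79%, the TATA box in 10.1% and 13.6%, and the E-box in 7.26% and 7.15%. These shares are given with no test.

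Whole-class totals recovered from the FPKM values were 2025331 to 2792592 lncRNA reads and 7233171 to 9902397 mRNA reads per heart. The listed lncRNAs held 99.8% to 99.9% of the lncRNA reads, but the listed mRNA transcripts held 36.8% to 39.9% of the mRNA reads, so a gene opposite a lncRNA may be represented by a part of its transcripts. Of 12 ventricular cardiomyocyte markers 11 were listed, with a summed level of 11725 to 12633 FPKM in Sham and 11608 to 12350 FPKM in I/R. Fabp3 (8967 to 9977 FPKM) and Hspb7 (1842 to 2335 FPKM) made up most of this sum, while the troponin genes Tnni3 and Tnnc1 were at 0.395 to 2.12 and 1.92 to 4.37 FPKM. Tnnt2 and Pln had log2 changes of -0.47 ± 0.13 (unadjusted p = 0.0103) and -0.77 ± 0.17 (unadjusted p = 0.00297), with every I/R heart below every Sham heart, and neither passed the adjusted threshold in limma. Summed fibroblast markers were 213 to 290.1 FPKM in Sham and 299 to 338 FPKM in I/R, with Col1a2 at 0 in 5 of 6 hearts, and summed macrophage markers, of which 4 of 8 were listed, were 885 to 1064 FPKM and 1096 to 1191 FPKM. The groups did not overlap in these sums, and their part in the results below was not tested. Single fibroblast markers differed in log2 change: Col1a1 0.51 ± 0.14, Col3a1 0.47 ± 0.19, Dcn 0.71 ± 0.47, Lum 0.23 ± 0.15, Tcf21 0.12 ± 0.21 and Pdgfra -0.01 ± 0.29. Neutrophil and lymphocyte marker sums did not exceed 1.54 FPKM and 1.05 FPKM in any heart. In bulk hearts fewer cells of a type and less RNA per cell cannot be told apart.

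The antisense lncRNAs had a higher median level and more median reads than lncRNAs overlapping no listed gene. They held 13.3%, 13.8% and 14.3% of all lncRNA reads in the Sham hearts and 14.0%, 14.2% and 13.8% in the I/R hearts, so the group shares overlapped. Their median level was 13.8 FPKM over the 6 hearts, against 11.9 FPKM for the 1038 lncRNAs overlapping a gene on the same strand, 1.98 FPKM for the 5777 lncRNAs overlapping no listed gene and 4.22 FPKM for all lncRNAs. In reads over the 6 hearts their median was 230, against 262.5 for the same-strand lncRNAs and 34 for those overlapping no listed gene. No antisense lncRNA was at 0 reads in all hearts, and neither was the gene that each overlapped most, so this is not particular to the lncRNAs. Fewer than 60 reads over the 6 hearts were held by 459, at least 60 by 1190, at least 1000 by 401 and at least 10000 by 31. The filter of a mean of at least 0.5 FPKM was passed by 1497, and the other 152 were not tested. Across the 907 antisense lncRNAs tested together with their gene, the Spearman correlation of the mean levels was 0.34, as a description of pairs that share the same 6 libraries.

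**Figure D1:**
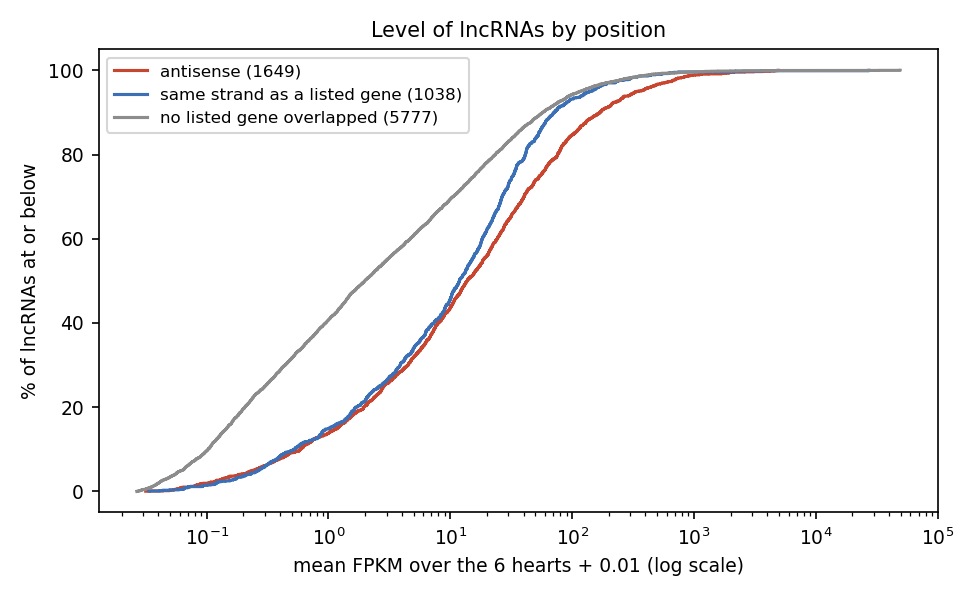
Cumulative share of lncRNAs (y axis, percent) at or below a mean level over the 6 hearts (x axis, FPKM plus 0.01, log scale), for antisense lncRNAs, lncRNAs overlapping a gene on the same strand and lncRNAs overlapping no listed gene. The antisense curve lies furthest right at high levels, with medians of 13.8, 11.9 and 1.98 FPKM.

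A few abundant transcripts carried much of the signal: the 10 with the most reads held 19.9% to 22.3% of the antisense reads in a heart. Gm15441 (chr3:96555765-96566801, minus strand), which encloses Txnip, the gene of the thioredoxin-interacting protein, had the most reads (108443 over 6 hearts) and was at 4192, 3991 and 6102 FPKM in the Sham hearts and 3786, 4590.4 and 4434 FPKM in the I/R hearts. The highest value was that of a Sham heart, and the groups overlapped. The listed Txnip transcripts held 19 reads. A630019I02Rik (chr13:93094833-93098968, plus strand), whose own start window is printed above, lies inside Cmya5, which encodes a costamere protein of striated muscle, and was at 2020.3, 1897 and 1954 FPKM in the Sham hearts and 2056, 1998 and 1922 FPKM in the I/R hearts. Its 6 values stayed within a narrow range with no separation of the groups.

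LncRNAs opposite genes of mitochondrial proteins also ranked high. 1700018A23Rik (chr6:126822377-126825177, plus strand), inside Ndufa9, which encodes a complex I subunit, was at 4340.3, 4688 and 4862 FPKM in the Sham hearts and 5033, 4601 and 4452 FPKM in the I/R hearts. Gm45507 (chr7:138890964-138894675, plus strand), inside Bnip3, whose product is a mitophagy receptor, was at 4334, 3676 and 5076 FPKM in the Sham hearts and 3887, 3694 and 4235 FPKM in the I/R hearts. In both the Sham and I/R values overlapped. Ndufa9 held 820 reads, against 27154 for 1700018A23Rik, and Bnip3 held 101, against 31400 for Gm45507. Gm13054 (chr4:148001091-148004014, minus strand), tail-to-tail with Nppa, the gene of atrial natriuretic peptide, was at 1165, 2386 and 1679.9 FPKM in the Sham hearts and 1603, 2091 and 2753 FPKM in the I/R hearts, with large differences within each group. Of the 10, only Gm15533 (chr7:128001899-128005190, minus strand), head-to-head with Trim72, a membrane repair gene of muscle, had every I/R heart above every Sham heart, at 551, 693 and 579 FPKM in the Sham hearts and 699, 696 and 711 FPKM in the I/R hearts. Its log2 change of 0.21 ± 0.10 had an unadjusted p of 0.073 and, in limma, an adjusted p of 0.617. Gm47484 at Ptgr2 and Gm10138 at Ivns1abp were also among the 10, with overlapping groups in each.

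Levels are given by arrangement, with no test. Tail-to-tail lncRNAs had a median of 28.7 FPKM, lncRNAs inside a gene 14.4 FPKM, head-to-head lncRNAs 10.6 FPKM and lncRNAs around a gene 2.69 FPKM. The 435 head-to-head transcripts, with a median overlap of 748 bases with their gene, held 21.8% of the antisense reads. The 252 tail-to-tail ones held 24.3%, the 917 inside ones 47.2% and the 45 around ones 6.72%, to which Gm15441 contributed most.

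No antisense lncRNA passed an adjusted p of 0.05 between I/R and Sham hearts (limma on log2(FPKM + 1), adjusted over all 12114 genes tested), and neither did any other gene: 0 were called, 0% of those tested, and the lowest adjusted value was 0.385. Of the antisense lncRNAs tested, 152 of 1497 had an unadjusted p under 0.05 (10.2%), beside 10.8% of all lncRNAs and 8.44% of all genes. Of the 152, 87 were higher in I/R (5.81%, beside 4.81% of all lncRNAs) and 65 were lower (4.34%, beside 6.02% of all lncRNAs). The share of 10.2% is near the background. The split of higher and lower depends on the settings: with each RNA class centred on its own median in each heart it was 132 higher and 52 lower, without I/R replicate 1 it was 87 and 90, and for lncRNAs overlapping over at least 50% of their span it was 45 and 50. The median log2 change was 0.01 for antisense lncRNAs, with quartiles of -0.19 and 0.21, and -0.03 for all lncRNAs. Every I/R heart lay above every Sham heart for 118 antisense lncRNAs (7.88%, beside 5.87% of all lncRNAs and 7.1% of all genes). Every I/R heart lay below every Sham heart for 82 (5.48%, beside 7.61% of all lncRNAs and 6.57% of all genes). In either direction the share was 13.4%, beside 13.5% of all lncRNAs and 13.7% of all genes.

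Among head-to-head lncRNAs with a small p, more were higher than lower in I/R. Of the 389 head-to-head lncRNAs tested, 38 were higher and 11 lower in I/R at an unadjusted p under 0.05, and their median log2 change was 0.06. Of the 833 inside lncRNAs tested, 34 were higher and 44 lower, with a median of -0.00. Tail-to-tail lncRNAs gave 13 higher and 10 lower of 242, with a median of -0.03, and around lncRNAs 2 higher and 0 lower of 33. The shares in either direction were 12.6%, 9.36%, 9.50% and 6.06% in that order, beside 10.8% of all lncRNAs and 8.44% of all genes. Of all 7073 lncRNAs tested, 340 were higher and 426 lower. The counts are of unadjusted values, and no test was made between the arrangements. Without I/R replicate 1 the head-to-head count was 36 higher and 23 lower, and among head-to-head lncRNAs overlapping their gene over at least 50% of their span it was 7 and 3.

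**Figure D2:**
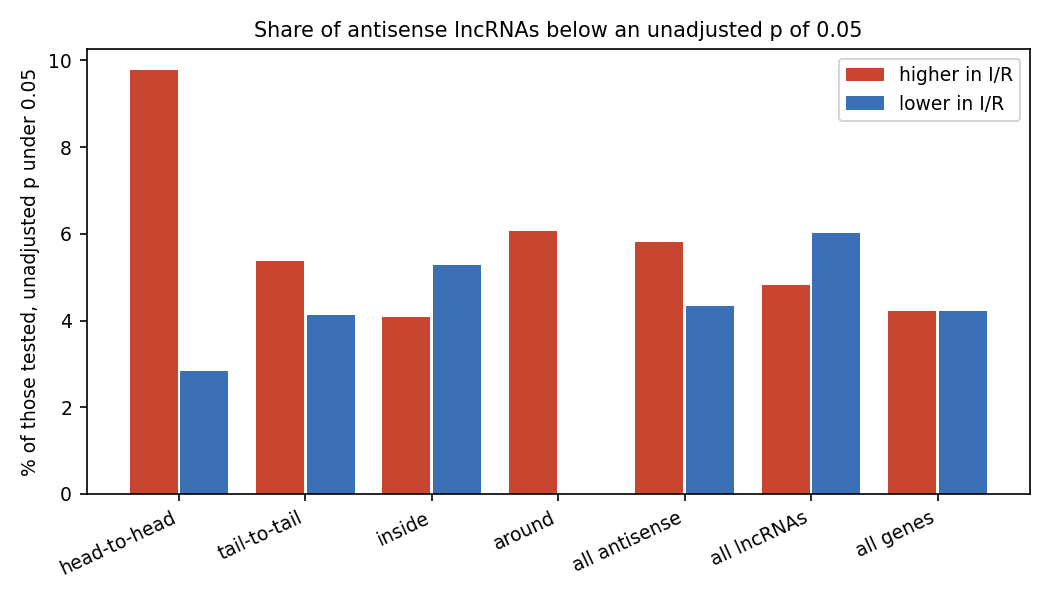
Percentage of tested lncRNAs with an unadjusted p under 0.05 (y axis), higher (red) or lower (blue) in I/R, for the 4 arrangements, all antisense lncRNAs, all lncRNAs and all genes (x axis). The head-to-head bars stand for 38 higher and 11 lower of 389, and the inside bars for 34 higher and 44 lower of 833.

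Among antisense lncRNAs with at least 60 reads, 6 of the 8 with the smallest unadjusted p for a higher level in I/R were head-to-head with their gene. Of all 1497 antisense lncRNAs tested, which include those with fewer than 60 reads, 389 were head-to-head. Gm26885 (chr17:29461896-29491925, minus strand; ENSMUSG00000097125) shares 1114 bases with Pim1, which encodes a serine/threonine kinase induced by cytokine signalling. It was at 74.4, 63.6 and 52.9 FPKM in the Sham hearts and 128, 149 and 91.4 FPKM in the I/R hearts. Each I/R heart was above each Sham heart, with means of 63.6 ± 10.8 FPKM in Sham and 123 ± 29.1 FPKM in I/R (SD, n = 3 each). The log2 change was 0.92 ± 0.21 (SE), with an unadjusted p of 0.00318 and an adjusted p of 0.386 in limma. Pim1 itself was at 80.7, 67.9 and 54.9 FPKM in the Sham hearts and 143, 158 and 106 FPKM in the I/R hearts. Its log2 change was 0.98 ± 0.20, and the hearts fell in the same order as for Gm26885.

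Gm28513 (chr1:153743552-153749324, minus strand; ENSMUSG00000099568) runs tail-to-tail with Rgs16, which encodes a protein that shortens G protein signalling, over 1917 bases. Its levels were 18.7, 21.1 and 25.8 FPKM in the Sham hearts and 39.1, 60.9 and 60.4 FPKM in the I/R hearts, from 336 reads in all. The groups did not overlap, and the means were 21.8 ± 3.6 FPKM and 53.4 ± 12.5 FPKM (SD, n = 3 each). Its log2 change of 1.24 ± 0.21 had an unadjusted p of 0.000681 and a limma adjusted p of 0.385. Rgs16 was at 6.74, 13.1 and 7.92 FPKM in the Sham hearts and 20.7, 29.6 and 22.7 FPKM in the I/R hearts, again without overlap, with a log2 change of 1.34 ± 0.26.

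0610040F04Rik (chr6:108577039-108660934, minus strand; ENSMUSG00000087341) begins 305 bases into Bhlhe40, a transcriptional repressor gene tied to the circadian clock, and was named because of that gene's change. It was at 64.6, 87.3 and 73.5 FPKM in the Sham hearts and 103, 183 and 148 FPKM in the I/R hearts, with the lowest I/R heart above the highest Sham heart. The means were 75.1 ± 11.4 FPKM and 145 ± 40.2 FPKM (SD, n = 3 each), and the log2 change was 0.91 ± 0.22 (unadjusted p = 0.00473, limma adjusted p = 0.388). Bhlhe40 was at 25.9, 37.8 and 25.6 FPKM in the Sham hearts and 41.1, 66.7 and 58.4 FPKM in the I/R hearts, with a log2 change of 0.87 ± 0.23.

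Gm48488 (chr13:60176682-60182862, plus strand; ENSMUSG00000114433) overlaps the start of Gas1, which encodes a membrane-anchored co-receptor of hedgehog signalling, by 684 bases. It was at 21.1, 20.2 and 18.4 FPKM in the Sham hearts and 29.4, 33 and 31.7 FPKM in the I/R hearts. These groups were tight and separate, and the log2 change was 0.63 ± 0.12 (unadjusted p = 0.00134, limma adjusted p = 0.386). Gas1 was at 29.4, 33 and 29 FPKM in the Sham hearts and 40.1, 42.1 and 40.9 FPKM in the I/R hearts, with a log2 change of 0.42 ± 0.11.

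**Figure D3:**
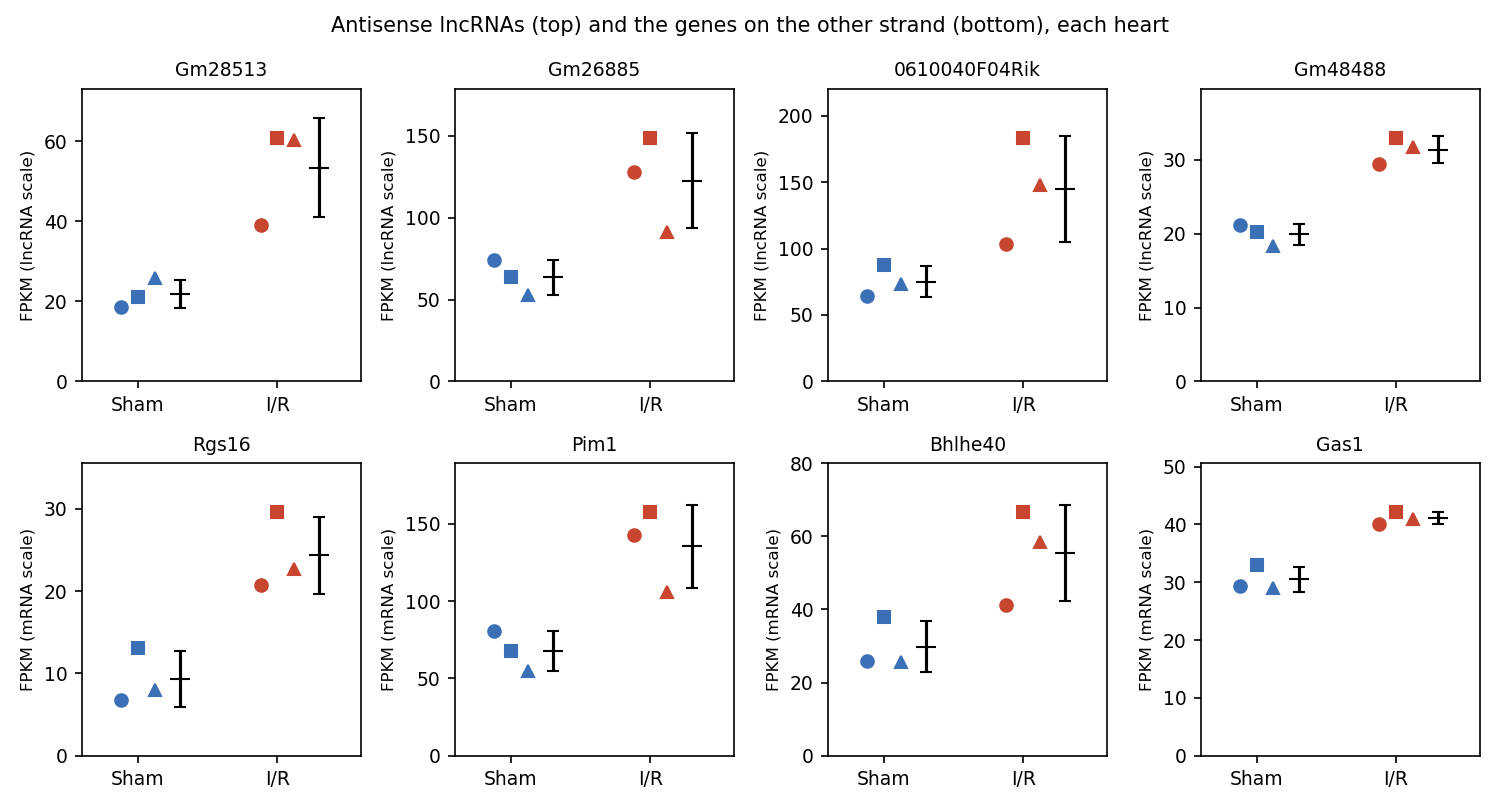
Level in each heart (y axis, FPKM on the scale of its RNA class) of 4 antisense lncRNAs (top) and of the genes opposite them (bottom), in Sham (blue) and I/R (red). Circles, squares and triangles are replicates 1, 2 and 3, and bars give the mean ± SD; in all 8 panels the I/R hearts lie above the Sham hearts.

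The other head-to-head lncRNAs of the 8 faced genes with few reads or with a smaller difference. Gm9888, opposite Cmtm7, which encodes a MARVEL-domain membrane protein, was at 26.3, 27.2 and 24 FPKM in Sham and 38.4, 37.9 and 37 FPKM in I/R (log2 change 0.53 ± 0.11). Cmtm7 had a log2 change of 0.09 ± 0.18 from 68 reads. Gm9768, opposite Klhl21, a substrate adaptor of a cullin ubiquitin ligase, was at 76.8, 86.4 and 96.3 FPKM in Sham and 121, 118 and 120.3 FPKM in I/R. None of its I/R hearts overlapped the Sham hearts (log2 change 0.47 ± 0.11), and Klhl21, with 32389 reads, had a log2 change of 0.11 ± 0.13. Gm42670 at Tmem33, a membrane protein gene of the endoplasmic reticulum, was at 65.1, 56 and 68 FPKM in Sham and 90.6, 94.7 and 85.6 FPKM in I/R (log2 change 0.52 ± 0.11). Tmem33 rested on 49 reads, at 0.76, 0.625 and 1.04 FPKM in Sham and 1.37, 2.03 and 3.08 FPKM in I/R, and its log2 change of 0.78 ± 0.26 was larger than that of Gm42670, with every I/R heart above every Sham heart (unadjusted p = 0.02). 2810430I11Rik at Col5a1, a fibrillar collagen gene with 11 reads here, was at 18.1, 24.1 and 19.2 FPKM in Sham and 33.7, 35.9 and 29.9 FPKM in I/R (log2 change 0.68 ± 0.15). The fibroblast marker sum stood higher in I/R in the same hearts, though not every marker did, and its part in this change was not tested. Gm15423, inside Sdccag8, a centrosome gene, completed the 8, at 6.01, 7.48 and 5.87 FPKM in Sham and 12.3, 9.96 and 12.2 FPKM in I/R.

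Of the 8 antisense lncRNAs with at least 60 reads and the smallest unadjusted p for a lower level in I/R, 6 were inside genes. Of all 1497 tested, which include those with fewer reads, 833 were inside genes. Gm15624 (chr6:83166152-83172755, minus strand), inside Dctn1, which encodes the large dynactin subunit, was at 14.9, 12.9 and 14.4 FPKM in the Sham hearts and 8.37, 7.92 and 6.38 FPKM in the I/R hearts. Its groups did not overlap, and its log2 change was -0.82 ± 0.16 (unadjusted p = 0.00156, limma adjusted p = 0.386). Dctn1 was at 1.2, 0.937 and 1.12 FPKM in the Sham hearts and 1.02, 1.15 and 0.942 FPKM in the I/R hearts, with overlapping groups. Gm7580, inside the organic anion transporter gene Slco3a1, was at 133, 144 and 158 FPKM in Sham and 72.7, 86.7 and 104 FPKM in I/R (log2 change -0.73 ± 0.15). Its gene, with 9430 reads, had a log2 change of -0.15 ± 0.13. Gm47689, inside Ppp2r5e, which encodes a regulatory subunit of a protein phosphatase, was at 45.8, 46.6 and 46.9 FPKM in Sham and 33.9, 38 and 30.3 FPKM in I/R, so 3 nearly equal Sham values stood above 3 lower I/R values (log2 change -0.44 ± 0.12).

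B230110C06Rik (chr14:15437623-15452445, plus strand) was the single head-to-head lncRNA among the 8, and shares 1365 bases with Lrrc3b, a leucine-rich repeat protein gene whose window is printed above. It was at 123, 100 and 100.2 FPKM in the Sham hearts and 70.7, 83.7 and 71.6 FPKM in the I/R hearts, with no overlap (log2 change -0.51 ± 0.13), whereas Lrrc3b was at 5.52, 4.1 and 3.22 FPKM in the Sham hearts and 4.46, 6.7 and 2.31 FPKM in the I/R hearts, with a log2 change of -0.00 ± 0.34. A930001C03Rik, tail-to-tail with the synaptotagmin gene Syt12, was at 63.7, 86 and 73.6 FPKM in Sham and 38.4, 42.1 and 55 FPKM in I/R (log2 change -0.71 ± 0.17). Syt12 also had every I/R heart below every Sham heart, but on 23 reads, and it was not tested. Gm43415 inside Usp46, a deubiquitinase gene, had a log2 change of -1.03 ± 0.25. Usp46 was also lower on average, with overlapping groups (log2 change -0.69 ± 0.29, unadjusted p = 0.0527 in limma). The pair difference was -0.34 ± 0.38. The log2 change of Gm36146 inside 3632451O06Rik was -0.85 ± 0.21, and that of 6430590A07Rik inside Abhd18 was -0.73 ± 0.19. Abhd18, with 80 reads and overlapping groups, had a log2 change of -0.64 ± 0.31 (unadjusted p = 0.079 in limma), and the pair difference was -0.09 ± 0.22. The adjusted p of these lower lncRNAs was 0.386 to 0.431 in limma.

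The spread of changes narrowed with depth. The median size of the log2 change was 0.38 (median SE 0.42) for the 308 tested lncRNAs with fewer than 60 reads, 0.22 (0.24) for the 788 with 60 to under 1000 reads and 0.10 (0.12) for the 401 with at least 1000 reads. The share with an unadjusted p under 0.05 was 9.42%, 10.2% and 10.7%, beside 10.8% of all lncRNAs. In the deepest tier 32 were higher and 11 lower, against 38 and 42 in the middle tier and 17 and 12 in the lowest. Over all lncRNAs tested 340 were higher and 426 lower, and no test was made between the tiers. Examples with a log2 change above 1 follow. Gm47079, head-to-head with Icam5 and with 4056 reads, was at 28.9, 81.3 and 39 FPKM in Sham and 97.6, 152 and 74.1 FPKM in I/R, and its groups overlapped despite a log2 change of 1.17 ± 0.41. 1700023H06Rik, inside the arrestin-domain gene Arrdc3 and with 1005 reads, was at 46, 43.8 and 25.5 FPKM in Sham and 99.1, 114 and 62.7 FPKM in I/R (log2 change 1.24 ± 0.30), and Gm37982, inside the uridine kinase gene Uck2 and in the middle tier with 807 reads, at 63.2, 65.8 and 29 FPKM in Sham and 88.6, 176 and 158 FPKM in I/R (log2 change 1.43 ± 0.38). These 3 were picked after their values were seen.

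**Figure D4:**
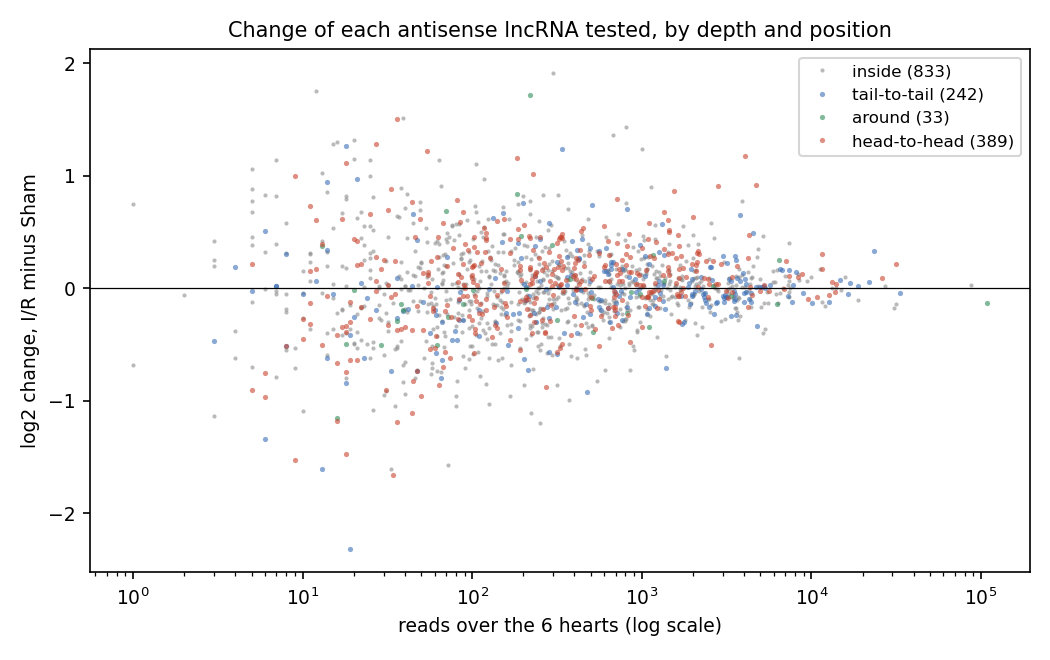
Log2 change of each tested antisense lncRNA, I/R minus Sham (y axis), against its reads over the 6 hearts (x axis, log scale), coloured by arrangement. The points draw in towards 0 as reads increase, with a median size of 0.38 below 60 reads and 0.10 from 1000 reads on.

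Whether a lncRNA and its opposite gene changed by different amounts was tested in each pair as the change of their log2 ratio within a heart. Each side was scaled to the total of its own RNA class, so the ratio of these totals enters every pair difference. The mRNA total was smaller relative to the lncRNA total in each I/R heart than in each Sham heart. For the same reads, this places the lncRNA lower against its gene in I/R. The differences below include this shift, and its size was not tested. Of 1014 pairs of any lncRNA and an opposite gene, 0 (0%) passed an adjusted p of 0.05 in limma (smallest 0.565), and 75 (7.4%) had an unadjusted p under 0.05. For the antisense lncRNAs described here, 932 of these same pairs were tested and 67 (7.19%) had an unadjusted p under 0.05, so the shares are not independent of each other. In 36 of these the lncRNA changed more upward than its gene and in 31 more downward. With each RNA class centred on its own median in each heart, these counts were 48 and 26. The difference was -0.06 ± 0.15 for Gm26885 and Pim1 (unadjusted p = 0.691), 0.04 ± 0.15 for 0610040F04Rik and Bhlhe40 (unadjusted p = 0.806), -0.10 ± 0.29 for Gm28513 and Rgs16 (unadjusted p = 0.737) and 0.21 ± 0.16 for Gm48488 and Gas1 (unadjusted p = 0.236). In these 4 pairs no unequal change was detectable beyond the errors given. Neither the strand setting of the counting nor a strand-marking step of the library kit is given in the sources used here. Without strand, reads from a lncRNA and from the gene opposite it cannot be told apart where they overlap.

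Among the pairs with the smallest unadjusted p, Gm15624 and Dctn1 came first (-0.79 ± 0.14, unadjusted p = 0.00121, limma adjusted p = 0.565), and the 3 I/R values of Gm15624 were all under its 3 Sham values. Gm47689 differed from Ppp2r5e by -0.57 ± 0.18 and Gm9888 from Cmtm7 by 0.44 ± 0.14. 6330562C20Rik, head-to-head with the ceramide synthase gene Cers2, was at 13.2, 12.7 and 13.2 FPKM in Sham and 20.7, 16.7 and 20.6 FPKM in I/R, against 16.2, 13.7 and 14.6 FPKM in Sham and 16.4, 14 and 13.7 FPKM in I/R for Cers2. The difference was 0.54 ± 0.17, although this lncRNA also lies in a coding gene on its own strand that the table does not list. Gm16618, head-to-head with the Wnt signalling gene Dvl3, was at 22.9, 28.2 and 31 FPKM in Sham and 17, 16.9 and 20 FPKM in I/R and differed by -0.61 ± 0.18. 4732440D04Rik, inside the autophagy gene Rb1cc1, was at 48.7, 37.5 and 41 FPKM in Sham and 35.2, 36.7 and 32.5 FPKM in I/R, against 10, 6.15 and 6.12 FPKM in Sham and 11.5, 10.1 and 7.82 FPKM in I/R for Rb1cc1, a difference of -0.64 ± 0.18.

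Further pairs were named by the same rule. Gm16796 differed from the prefoldin gene Pfdn4 by 0.87 ± 0.24, Gm15569 from the ceramide kinase gene Cerk by 0.81 ± 0.24, Gm45231 from the trafficking gene Trappc5 by 0.74 ± 0.22, Gm10773 from the sulfotransferase gene Chst11 by -0.49 ± 0.15 and Gm13954 from the elongator gene Elp4 by -0.68 ± 0.20. Each of these had a limma adjusted p of 0.565. Some rested on few reads, namely 70 for Gm16796, 119 for Pfdn4, 108 for Cerk and 68 for Gm13954. Cerk and Trappc5 had means of 0.95 and 1.83 FPKM, and Dctn1 of the pair above 1.06 FPKM. At such levels log2(FPKM + 1) understates a change, and this enters the pair difference.

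**Figure D5:**
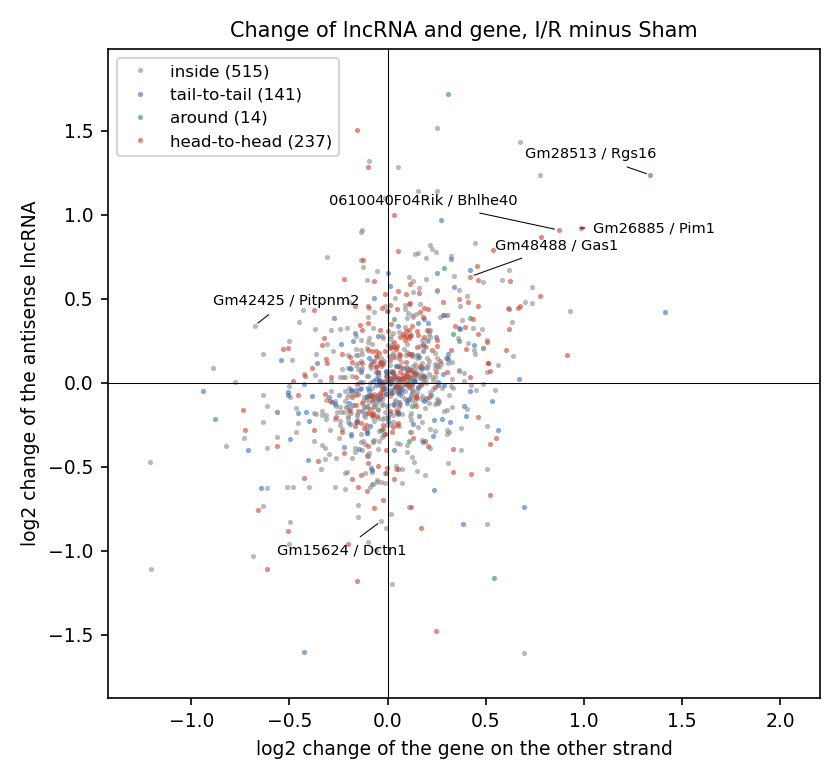
Log2 change of each antisense lncRNA (y axis) against that of the gene opposite it (x axis), I/R minus Sham, where both were tested (907 pairs), coloured by arrangement. Gm28513 with Rgs16, Gm26885 with Pim1 and 0610040F04Rik with Bhlhe40 lie at the upper right, and Gm15624 lies at -0.82 with Dctn1 near 0; all changes come from the same 6 hearts.

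In some pairs lncRNA and gene kept an almost fixed ratio from heart to heart, whatever the group. Gm13054 was at 3.40 to 3.59 times the FPKM of Nppa in all 6 hearts (each on the FPKM scale of its class), while Nppa itself was at 329, 672 and 468 FPKM in the Sham hearts and 465, 583 and 811 FPKM in the I/R hearts. Gm26885 was at 0.865 to 0.964 times Pim1. Gm38287 (chr2:25180781-25183339, minus strand), which fills nearly the whole span of Nrarp, a feedback regulator gene of Notch signalling, was at 134, 239.7 and 229 FPKM in Sham and 118, 152 and 192 FPKM in I/R, and its ratio to Nrarp was 3.63 to 3.99. In contrast, Gm10138 was at 10.1 to 19.6 times Ivns1abp, and 4930513N20Rik, inside Tacc2, at 18.3 to 100.3 times Tacc2. These pairs were picked after their values were seen.

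Over pairs with at least 600 reads on each side, the SD over the 6 hearts of the log2 ratio had a median of 0.09 in 35 tail-to-tail pairs, 0.15 in 55 head-to-head pairs and 0.17 in 98 inside pairs. The SD of the lncRNA alone had medians of 0.13, 0.21 and 0.17, and that of the gene alone 0.12, 0.16 and 0.14. The median for the ratio was thus close to that of the gene in head-to-head pairs and above it in inside pairs. The ratio was steadier than the lncRNA in 45 of 55 head-to-head, 22 of 35 tail-to-tail and 51 of 98 inside pairs. These are descriptions with no test, and the part of shared reads in them was not tested.

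For the other genes named by the rule on the smallest p of the gene itself, the lncRNA values overlapped between the groups. Pitpnm2, a phosphatidylinositol transfer protein gene, was at 16.9, 19.5 and 21.6 FPKM in the Sham hearts and 10, 11.7 and 13.5 FPKM in the I/R hearts, with every I/R heart lower (log2 change -0.68 ± 0.17), while Gm42425 inside it was at 41.8, 34.6 and 33.2 FPKM in the Sham hearts and 48, 70.2 and 29.4 FPKM in the I/R hearts, with overlapping groups. Tacc2 had a log2 change of -0.89 ± 0.26, and 4930513N20Rik was at 136, 151 and 502 FPKM in the Sham hearts and 241, 187 and 279 FPKM in the I/R hearts, where Sham replicate 3 stood far above the other hearts. Adm, which encodes the vasodilator adrenomedullin, had a log2 change of 0.54 ± 0.15, but Gm28863 around it rested on 16 reads. Cspp1, a centrosome gene, had a log2 change of 0.93 ± 0.27 from 208 reads, but of 0.28 ± 0.32 (unadjusted p = 0.407) in a voom fit on the recovered reads. 1700047N06Rik inside it had one of 0.43 ± 0.38.

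The opposite genes were grouped by symbol into roles, and none of the roles held an antisense lncRNA that passed the adjusted threshold. The shares below, in either direction at an unadjusted p under 0.05, stand beside 10.8% of all lncRNAs and 8.44% of all genes, and no role was tested against the rest. Opposite kinases, phosphatases and G protein signalling genes, 9 of 103 tested lncRNAs were higher and 5 lower (13.6% of them, beside 10.8% of all lncRNAs), among them Gm26885 and Gm28513. In the same role, Gm11696, head-to-head with the G protein subunit gene Gna13, was at 31.5, 34.7 and 35 FPKM in Sham and 49.2, 50.1 and 42.5 FPKM in I/R. 4930522N08Rik and Gm16226, both inside the exchange factor gene Rasgef1b, had log2 changes of 1.52 ± 0.21 and 1.14 ± 0.31 from 39 and 64 reads. Gm37401, opposite the GTPase gene Rhoa, was among the most abundant of all, at 3502, 3632 and 3892 FPKM in Sham and 3757, 3873 and 3550.0 FPKM in I/R, with overlapping groups.

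Opposite inflammation and immune signalling genes, 5 of 43 were higher and 0 lower (11.6%, beside 10.8% of all lncRNAs). Gm44876, inside the interleukin receptor gene Il4ra, was at 105, 99.2 and 106 FPKM in Sham and 129, 155 and 138 FPKM in I/R. 1700001G11Rik, head-to-head with Trim35, was at 47.8, 45.4 and 36.8 FPKM in Sham and 67.4, 61 and 62.4 FPKM in I/R. Neither overlapped between groups, and the median log2 change of this role was -0.07. Several genes of this role, such as Trim72 and Cd34, entered by the form of their symbol and are better known for membrane repair and for marking vascular or progenitor cells. The macrophage marker sum was also higher in the I/R hearts, and its part in these values was not tested.

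Opposite transcription factor genes, 4 of 82 were higher and 1 lower (6.10%, under the 10.8% of all lncRNAs). Beside 0610040F04Rik, Gm45095 inside Cebpg was at 56.4, 77 and 97.2 FPKM in Sham and 119, 117 and 132 FPKM in I/R and Gm45371 inside Zfp703 at 108, 144 and 127 FPKM in Sham and 163, 198 and 160.3 FPKM in I/R, both without overlap. Gm15283, which extends around Hif1a, the gene of the oxygen-regulated factor, was at 298, 278 and 252 FPKM in Sham and 381, 308 and 299 FPKM in I/R. All its I/R values were above all its Sham values, with a log2 change of 0.25 ± 0.12 and an unadjusted p of 0.0812.

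Opposite solute carrier and pump genes, 4 of 37 were higher and 1 lower (13.5%, beside 10.8% of all lncRNAs). Gm12868, tail-to-tail with the glucose transporter gene Slc2a1, was at 173, 181 and 191 FPKM in Sham and 193, 243 and 249.9 FPKM in I/R, and Gm17080, inside the nucleoside transporter gene Slc29a1, at 368, 326 and 397 FPKM in Sham and 482, 442 and 402 FPKM in I/R. Gm4430 and 9830144P21Rik, head-to-head and tail-to-tail with the phosphate transporter gene Slc20a1, had log2 changes of 0.41 ± 0.14 and 0.49 ± 0.20. The lower one was Gm7580.

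Opposite growth factor, adhesion and matrix genes, 4 of 72 were higher and 1 lower (6.94%, under the 10.8% of all lncRNAs). Gm30003, head-to-head with the elastin gene Eln, was at 41, 49.5 and 34.5 FPKM in Sham and 79.8, 55.6 and 54.3 FPKM in I/R, and Gm15270, head-to-head with the matricellular gene Ctgf, at 520.3, 901 and 1107 FPKM in Sham and 864, 1066 and 1067 FPKM in I/R, where Sham replicate 1 was the lowest and the groups overlapped. For ubiquitin, chaperone and autophagy genes the count was 2 higher and 3 lower of 53 (9.43%), with 1700101I11Rik at Gabarapl1 at 217, 225 and 328 FPKM in Sham and 261, 228 and 267 FPKM in I/R. For RNA processing and translation genes it was 2 higher and 2 lower of 39 (10.3%).

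Few lncRNAs lay opposite heart muscle genes, and their shares were near the background. For sarcomere and Z-disc genes 0 of 13 were higher and 1 lower (7.69%, beside 10.8% of all lncRNAs), namely 1700119H24Rik inside Mylk, at 11.6, 11.3 and 14.3 FPKM in Sham and 3.84, 5.89 and 8.68 FPKM in I/R, although Mylk encodes a myosin kinase rather than a sarcomere component. Gm4814, inside Cmya5 like A630019I02Rik, was at 709, 700.0 and 666 FPKM in Sham and 730.2, 703 and 735 FPKM in I/R. For mitochondria and energy metabolism genes 1 of 19 was higher and 1 lower (10.5%), namely Gm17034 inside the hexokinase gene Hk2, at 99, 144 and 165 FPKM in Sham and 187, 204 and 165 FPKM in I/R, and Gm15976 inside the ATP synthase gene Atp5o, at 101, 64.5 and 63.3 FPKM in Sham and 35.8, 58.3 and 23.8 FPKM in I/R. None of the 25 lncRNAs tested opposite calcium and ion channel genes had an unadjusted p under 0.05, nor any of the 39 opposite chromatin and cell cycle genes. LncRNAs opposite channel genes were also the lowest in level, with a median of 1.50 FPKM, against 75.3 FPKM opposite mitochondrial and 65.0 FPKM opposite sarcomere genes. The remaining 1081 lncRNAs faced genes in none of these roles, and 56 of 972 tested were higher and 50 lower (10.9%).

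Where 1 gene had several antisense lncRNAs, levels could be close, as for 3 of the 4 at Fto, or far apart. At Fto, which encodes an RNA demethylase, the FPKM values of Gm45290, 4831440D22Rik and Gm3235 were 1.01 to 1.12, 1.04 to 1.19 and 0.917 to 1.12 times that of the gene over the 6 hearts. The other one at Fto, Gm45427, was not among the pairs with at least 600 reads on each side, and its ratio is not given. Immp2l, which encodes a mitochondrial inner membrane peptidase, had 6 within or across its span, more than any gene other than Tenm4, which also had 6. Gm47376, Gm47368 and Gm47373 had means over the Sham hearts of 40.4, 21.1 and 24.7 FPKM and over the I/R hearts of 44.4, 21.2 and 20.6 FPKM, Gm47371 had 26.0 and 19.1 FPKM from 36 reads, and Gm46348 and Gm47375 were at 2.80 and 1.49 FPKM in Sham. No direction was common to the 6. At Tenm4, a teneurin gene, C230038L03Rik held 675 reads, and each of the other five had at most 6. LncRNAs that share a gene are not independent of each other, and these 3 genes were picked after their values were seen.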

How the data were processed

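Polyadenylated RNA of 6 mouse hearts (3 Sham, 3 I/R) was sequenced by the study. The authors deposited FPKM values per lncRNA and per mRNA transcript with coordinates. Per the submitters' processing notes, the tools were HISAT2 2.1.0, HTSeq 0.10.0, fastp 0.23.0 and bcl2fastq 2.19.1.403, and builds GRCm39, GRCm38 and mm10 are named. The annotation behind the counting, and its strand setting, were not stated there or in the labels. The spacing of the deposited FPKM values gave whole reads (tolerance 0.001, lengths from 30 bases) for all 9413 lncRNA and 11745 mRNA rows, with 1 total per RNA class and heart.

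Of 21198 rows, 40 repeated identifiers were dropped, 3 of the antisense lncRNAs keeping their first of several positions. FPKM of transcripts were summed per coding gene (8969 genes). A gene was tested where its mean reached 0.5 FPKM, in limma 3.58.1 (R 4.3.3) on log2(FPKM + 1), with a variance trend and group as the only term, two-sided, with Benjamini-Hochberg adjustment over all 12114 (7073 lncRNAs, 5041 coding genes). Fold changes are on that scale, which understates those of low genes. Pairs were fitted likewise on the difference of log2 values within a heart. The fits were tested on simulated data.

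Named were the 10 antisense lncRNAs with the most reads, the 8 per direction with the smallest unadjusted p among those with at least 60 reads, those opposite the genes with the smallest p, up to 3 per role with the most reads, and the 5 pairs per direction with the smallest p. Others were named after their values were seen. LncRNAs on chromosome 18 are not described here. The members and lists were chosen with earlier results of these data known. Alternatives covered pseudocount, filter, scaling, variance model, overlap, a voom fit on the recovered reads, a replicate block and leaving out each heart. Leaving out the 30 lncRNAs that lie in an unlisted coding gene on their own strand was an alternative chosen after seeing the data. Replicate numbers are not stated to pair hearts, and p-values measure the spread between hearts as labelled. Some members that the naming rule selects are not reported here.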

Additional observations from a re-analysis of the deposited data

How the results depend on the processing

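No antisense lncRNA and no pair passed an adjusted p of 0.05 in limma under any of the alternatives. A voom fit on the recovered reads also called 0, with 65 higher and 46 lower at an unadjusted p under 0.05. Of 29 named lncRNAs with a change, 28 kept its direction in 16 settings; 4930513N20Rik turned to -0.25, -0.17 and -0.04 without Sham replicate 1, Sham replicate 2 or I/R replicate 3, in a leave-one-out range of -0.25 to 0.69. The pair difference of 0610040F04Rik and Bhlhe40 turned to -0.028 and -0.00 on leaving out the second heart of Sham or of I/R (range -0.028 to 0.12). That of Gm28513 and Rgs16 turned to 0.052 with a pseudocount of 5 FPKM, 0.10 without Sham replicate 3 and to 0.0013 on dropping I/R replicate 1 (range -0.38 to 0.10). All of these lie within their errors. In the voom fit Cspp1 had 0.28, Tmem33 1.32, Gm16796 0.86, and the pairs of Gm15569 with Cerk and Gm16796 with Pfdn4 had 1.26 and 1.36.

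With each class centred on its median, 132 antisense lncRNAs were higher (52 lower), the median change was 0.075 and that of head-to-head lncRNAs 0.13. Requiring an overlap of at least 50% of the span left fewer lncRNAs, of which 45 were higher and 50 lower (7 and 3 head-to-head), so that the split turned. It also turned without I/R replicate 1, at 87 higher and 90 lower. The cause was not tested. The head-to-head lower count was 23 without I/R replicate 1, 6 with lncRNAs fitted alone and 6 in the voom fit; the cause was not tested. The median of head-to-head lncRNAs was 0.092 without I/R replicate 3. Pairs gave 68 above and 61 below with no filter, and 21 and 15 at a mean of at least 2 FPKM, since the number of pairs changes. Without Sham replicate 3, 19 pairs lay below.

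Leaving out each heart in turn gave 62 to 100 higher and 61 to 90 lower antisense lncRNAs. Head-to-head counts were 27 to 39 higher and 9 to 23 lower, and inside counts 25 to 43 and 36 to 57. The median change was -0.011 to 0.029 for all antisense lncRNAs and 0.043 to 0.092 for head-to-head ones. Pairs numbered 26 to 41 above and 19 to 39 below.

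Same-numbered hearts had deviations correlated at 0.15, 0.03 and 0.03, and differently numbered hearts at -0.14 to 0.11. With 3 hearts per group these values cannot show whether the numbers pair the hearts. With the replicate number as a block, 101 were higher and 85 lower, 0 were called and the smallest adjusted p in limma was 0.115. Depth limits the 459 antisense lncRNAs with fewer than 60 reads, whose median SE was 0.42, and 3 hearts per group limit all.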
